A study of Mus musculus with 6 samples.

Results

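The integrated stress response is the programme by which cells lower general protein synthesis under stress. Kinases that sense endoplasmic reticulum stress, amino acid shortage, heme shortage or double-stranded RNA phosphorylate the translation factor eIF2, and translation of the transcription factor ATF4 then rises. ATF4 and its partners switch on genes for amino acid supply, for further stress factors and for the return to normal translation. Nupr1 encodes a small stress-induced chromatin protein, known to respond to endoplasmic reticulum stress and amino acid starvation, partly through ATF4.

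The 10 genes described here are Nupr1, Ddit3, Atf3, Atf4, Trib3, Asns, Chac1, Psat1, Sesn2 and Ppp1r15a, of 12393 genes measured. They were matched by gene symbol in the platform annotation, and all 10 were found. They were selected on the measured difference between the 2 groups, which was already known, Nupr1 being one of the larger differences. The members' own differences are therefore given as a description, with no test.

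Total liver RNA was profiled on 6 Affymetrix arrays, 1 per mouse. All mice were labelled Ppara KO on a C57 background and were 1 month old, so both groups are labelled as lacking the nuclear receptor gene Ppara. In the 3 mice labelled TFEB-injected the adenoviral vector went into the liver; TFEB is best known for switching on lysosomal and autophagy genes. The 3 control mice were not injected, so effects of TFEB and of the vector or injection cannot be told apart. The labels name neither the promoter of the vector nor the time between injection and sampling, and call the arrays biological replicates.

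Values are log2 expression levels per probe set from RMA, the authors' normalization, and a difference of 1 is a factor of 2. Where a gene had several probe sets, the one with the highest mean over the 6 arrays led. Changes are injected minus not-injected, with the standard error from limma fitted across all genes, and "rose" and "fell" are kept for genes outside the 10 with an adjusted p under 0.05. The comparison sets TFEB-injected Ppara KO liver against liver left alone; 9.99% of all genes were higher and 7.92% lower at that threshold (1238 and 981). Leaving out 1 control liver lowered the higher count to 746 (replicate 1) or 800 (replicate 2) and the lower count to 525, 545 or 593 (replicates 1 to 3). Leaving out TFEB-injected replicate 2 gave 722 and 507. Centring each array on its median gave 1060 higher and 1352 lower, moving the higher share of calls from 55.8% to 43.9%. The Tfeb probe set gave 7.55 ± 0.07 and 7.59 ± 0.12 (SD, n = 3 each) and the Ppara probe set 8.95 ± 0.07 and 9.08 ± 0.04. The labels state neither the species of the vector's TFEB nor the deleted part of Ppara, so neither probe set checks the labels.

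Nupr1 was the member that stood apart. Its level was 5.51, 5.73 and 5.84 in the not-injected livers and 8.27, 8.98 and 9.85 in the injected livers. Every injected liver lay at least 2 log2 units above every not-injected one. The means were 5.69 ± 0.17 and 9.03 ± 0.79 (SD, n = 3 each), a log2 difference of 3.34 ± 0.35 (SE), or 10.1-fold between RMA levels. The not-injected level lay below the array medians of 6.92 to 6.93, and no detection calls were used, so whether it was above background was not tested and the fold holds only for these RMA values. A further probe set for Nupr1, of a kind that can also detect related sequences, gave 6.18, 6.14 and 5.88 against 7.89, 8.65 and 9.43. That is 2.59 ± 0.33 or 6.02-fold, with the injected livers in the same order. The size of the difference varied among the injected mice. Replicate 1 lay 2.58, replicate 2 3.29 and replicate 3 4.16 above the not-injected mean. With any 1 array left out the Nupr1 difference stayed between 2.93 and 3.72.

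The 250 bases before the Nupr1 start are shown because Nupr1 was the most changed member and because they hold letters known from ATF4 binding. The sequence is from RefSeq, build GRCm38.p6, chr7:126625471-126625720, minus strand, written 5′ to 3′ along the gene. Capitals mark 2 motif matches. One is TTGCATCA, the reverse complement of TGATGCAA, the core of the C/EBP-ATF response element bound by ATF4 with C/EBP factors. The other is CACGTG, an E-box core of the kind found in TFEB sites.
Nupr1: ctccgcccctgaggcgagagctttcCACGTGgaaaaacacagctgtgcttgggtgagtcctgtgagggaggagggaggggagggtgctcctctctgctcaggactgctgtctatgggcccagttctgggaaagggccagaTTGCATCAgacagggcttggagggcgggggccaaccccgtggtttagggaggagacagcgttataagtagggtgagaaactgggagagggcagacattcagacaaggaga

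All 10 members had a RefSeq promoter window, 11 windows in all, each from 250 bases before to 50 after a gene start. The wider motif TGATGNAA, searched on both strands, was in a window of 5 of the 10 members and in 3.97% of all 32851 windows. TGATGCAA, which is contained in it, was in windows of 3 members, Nupr1, Chac1 and Atf3, and in 0.895% of all windows. CACGTG was in the window of 1 member, Nupr1, and in 7.15% of all windows. These shares are per window, while the members are counted per gene. Counted per gene, TGATGNAA was in 309, TGATGCAA in 84 and CACGTG in 1069 of 9887 tested genes with a window. The matches in the 5 members are shown with 11 bases on each side and the motif in capitals, because the genes that share these letters differed in how they changed.
Nupr1, chr7:126625562-126625591, minus strand: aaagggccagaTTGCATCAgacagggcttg
Chac1, chr2:119351038-119351067, plus strand: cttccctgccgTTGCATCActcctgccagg
Atf3, chr1:191183425-191183454, minus strand: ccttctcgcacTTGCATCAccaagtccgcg
Asns, chr6:7693214-7693243, minus strand: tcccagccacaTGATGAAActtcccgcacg
Trib3, chr2:152344028-152344057, minus strand: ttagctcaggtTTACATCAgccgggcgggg
The first base of the match lay 110 bases before the start in Nupr1 and Atf3, 193 in Chac1 and 23 in Asns, and at base 15 of the transcript in Trib3. Of these 5 genes, Nupr1 had a difference of 3.34 and Asns of -0.32, and the other 3 lay between 0.05 and 0.44. Among 9887 tested genes with a window, 10.4% were higher and 7.94% lower at the threshold. Among the 309 with TGATGNAA the shares were 9.06% and 11%, among the 84 with TGATGCAA 14.3% and 14.3%, and among the 1069 with CACGTG 15.4% and 7.86%. A match describes letters only.

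At the threshold used for all genes, 2 of the 10 members, Nupr1 and Ddit3, counted as higher and 0 as lower, beside 9.99% higher and 7.92% lower over all genes. Because the members were selected on this difference, the count is no test of them and nothing is read from it. It was 3 higher without TFEB-injected replicate 1 (Chac1 added) and 1 lower without TFEB-injected replicate 3 (Asns). The groups did not overlap for 4 members, Nupr1 and Ddit3 above and Atf4 and Asns below. Over all genes, 18.2% lay wholly above and 18.9% wholly below, 37.1% together. The median change of the 10 was 0.07, that of all genes -0.01.

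**Figure D1:**
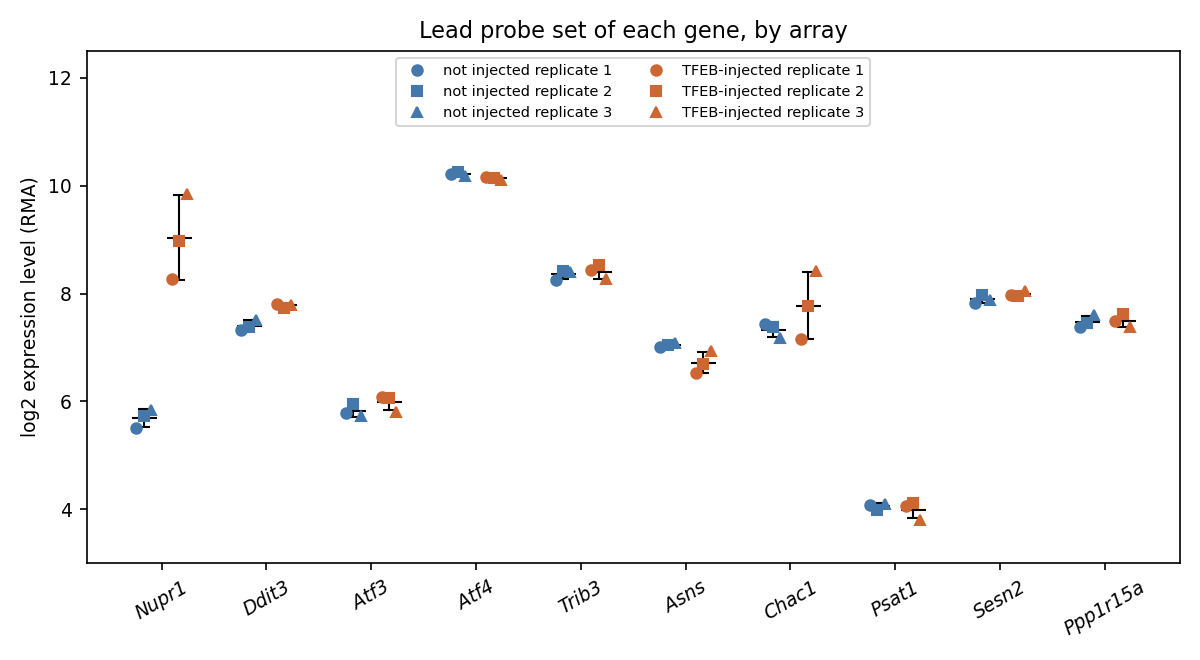
Log2 expression level (vertical axis, RMA) of the lead probe set of each of the 10 genes in every array. Blue symbols are the 3 not-injected and orange symbols the 3 TFEB-injected mice, with the symbol shape giving the replicate number, the horizontal bar the mean and the whiskers ± SD. Nupr1 moves from 5.69 to 9.03, while most other members overlap or nearly touch between groups.

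The transcription factors of the pathway differed less than Nupr1, from -0.07 for Atf4 to 0.37 for Ddit3 on the lead probe sets. Atf4, the central factor, gave 10.22, 10.25 and 10.17 in not-injected and 10.16, 10.15 and 10.11 in injected livers. The difference was -0.07 ± 0.05, with a 95% interval from -0.18 to 0.03. The injected values lay just below the not-injected ones. The other Atf4 probe sets gave -0.27 ± 0.07, from a kind that can detect related sequences, and 0.09 ± 0.07. ATF4 is controlled largely by translation, and an array measures only its mRNA.

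Ddit3, which encodes CHOP, a factor linked to cell death under prolonged endoplasmic reticulum stress, gave 7.32, 7.38 and 7.51 against 7.81, 7.74 and 7.79. All injected livers were higher and close together, for a difference of 0.37 ± 0.06 or 1.30-fold. Atf3, a stress-induced factor downstream of ATF4, gave 5.78, 5.96 and 5.73 against 6.09, 6.06 and 5.81. Injected replicate 3 fell within the not-injected range, and the difference was 0.16 ± 0.09 (95% interval -0.06 to 0.38). Trib3, a pseudokinase that restrains ATF4 and CHOP, gave 8.25, 8.41 and 8.40 against 8.43, 8.52 and 8.26. The groups overlapped, with a difference of 0.05 ± 0.08 (95% interval -0.13 to 0.23) and 0.01 ± 0.06 from its other probe set. The Trib3 lead probe set is of the kind that can detect related sequences.

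Among the metabolic targets, Asns and Chac1 had the larger differences, in opposite directions. Asns, for asparagine synthetase, gave 7, 7.05 and 7.09 in not-injected and 6.53, 6.70 and 6.93 in injected livers. All injected livers were lower, replicate 1 most, for a difference of -0.32 ± 0.10 (95% interval -0.55 to -0.10). The other Asns probe set, of a kind that can also detect related sequences, gave 6.46, 6.56 and 6.61 against 5.73, 5.97 and 6.35. That is a difference of -0.53 ± 0.14, with the injected livers in the same order.

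Chac1, for an enzyme that degrades glutathione, gave 7.44, 7.38 and 7.17 against 7.16, 7.76 and 8.41. Injected replicate 1 lay below all not-injected livers and replicate 3 above them all. The difference of 0.44 ± 0.28 had a 95% interval from -0.20 to 1.09. Without TFEB-injected replicate 1 it was 0.75, and the lowest value with any array left out was 0.13. Psat1, for an enzyme of serine synthesis, gave 4.08, 3.99 and 4.10 against 4.06, 4.12 and 3.81, near the lowest value of the table, 3.08. Its difference was -0.06 ± 0.08 on the lead and 0.17 ± 0.10 on the other probe set, so no direction can be given.

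The feedback and signalling members overlapped between the groups. Ppp1r15a encodes GADD34, the subunit that directs dephosphorylation of eIF2. It gave 7.38, 7.46 and 7.60 against 7.50, 7.62 and 7.38, a difference of 0.02 ± 0.08 (95% interval -0.17 to 0.21). Sesn2, a stress-induced restraint on mTORC1, gave 7.83, 7.98 and 7.88 against 7.97, 7.95 and 8.04. Its difference was 0.09 ± 0.06 (95% interval -0.04 to 0.22), and 0.07 ± 0.06 on the other probe set.

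The members also differed in how far the injected livers lay from each other. The range over the 3 injected arrays was 1.58 log2 units for Nupr1 and 1.25 for Chac1, against 0.33 and 0.27 over the not-injected arrays. For Ddit3 it was 0.07 against 0.19. In 7 of 10 members the injected range was the wider one. Over all genes the median range was 0.14 in injected and 0.11 in not-injected livers. The share of all genes with the wider injected range was not computed, so nothing is read from the member count. Nupr1, Chac1 and Asns were each highest in injected replicate 3 and lowest in replicate 1, an order shown by 27.5% of all genes. Atf3, Atf4, Trib3, Psat1 and Ppp1r15a were lowest in injected replicate 3, as were 35.7% of all genes.

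The genes whose 6 array values lay closest to those of Nupr1 were Bex2, Cox8b, Cox7a1, Pard6g and Cyp46a1. Likeness was the root mean square distance over the 6 arrays, each value taken against the gene's not-injected mean. It therefore reflects the group difference as well as the individual livers. No gene of the 8 lists described below changed by more than 0.94 (Eif2ak3). None of them could thus be among the closest, and their absence is no result. Bex2, of a family of small adaptor proteins, was closest at 0.11 log2 units. It gave 5.55, 5.78 and 5.90 against 8.39, 9.28 and 9.84. Cox8b followed at 0.15, with 5.77, 5.90 and 5.76 against 8.44, 9.16 and 9.71, and Cox7a1 at 0.29; both encode subunits of respiratory complex IV best known from muscle and brown fat. The polarity gene Pard6g (0.49) and the cholesterol hydroxylase gene Cyp46a1 (0.51) completed the 5. The measure includes the injected livers, so a like order among them is favoured by the choice. The other Pard6g probe set gave a change of 0.58 where the lead gave 2.79.

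**Figure D2:**
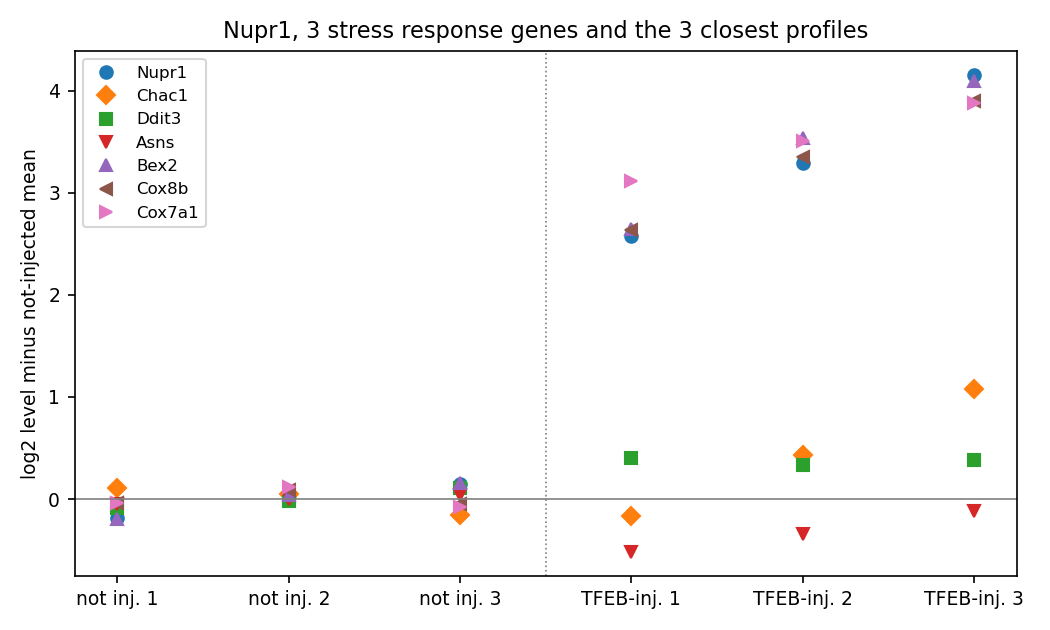
Log2 level of 7 genes in each of the 6 arrays (horizontal axis), minus each gene's not-injected mean (vertical axis). Nupr1, Bex2, Cox8b and Cox7a1 lie together at 2.58 and above in the injected livers, while Chac1, Ddit3 and Asns stay between about -0.51 and 1.08.

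Upstream of ATF4, the eIF2 kinase genes differed from each other. Of 12 measured genes for eIF2 kinases, eIF2, eIF2B and their regulators, 1 rose and 1 fell, with a median of -0.06. Beside the counts of this and the later lists stand the shares over all genes, 9.99% higher and 7.92% lower. Eif2ak3, for PERK, the kinase that senses endoplasmic reticulum stress, gave 8.02, 8.07 and 8.08 in not-injected and 8.93, 9 and 9.07 in injected livers. The groups were far apart and each narrow, a change of 0.94 ± 0.05 (limma, adjusted p = 7.96e-05) or 1.92-fold. Its other probe sets gave 0.44 ± 0.09, from a kind that can detect related sequences, and 0.22 ± 0.10. Eif2ak2, for PKR, the kinase that senses double-stranded RNA, fell by 0.43 ± 0.07 (adjusted p = 0.00712), with -0.18 ± 0.12 on its other probe set. Eif2ak1, the heme-regulated kinase gene (-0.15 ± 0.05), and Eif2ak4, for GCN2, which senses amino acid shortage (0.13 ± 0.06), did not pass (limma, adjusted p = 0.0877 and 0.212); the choice to name both followed a look at their values. The count of 1 higher was 2 without TFEB-injected replicate 1.

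A list of 17 genes for bZIP factors, the family of ATF4, includes partners with which ATF4, ATF3 and CHOP pair on DNA. Not all 17 are known partners, Atf6 among them. In this list 4 rose and 3 fell (median -0.09). Jun, which pairs with ATF3, rose from 7.02, 7.06 and 7.08 to 7.77, 7.96 and 7.91, a change of 0.83 ± 0.06 (limma, adjusted p = 2.37e-04). Jund rose by 0.23 ± 0.05 (adjusted p = 0.0158); its adjusted p was 0.0675 when control replicate 1 was left out and 0.0575 when control replicate 2 was. The C/EBP genes Cebpd (-0.83 ± 0.06; adjusted p = 2.58e-04) and Cebpb (-0.34 ± 0.05; adjusted p = 0.00251) fell, although another Cebpd probe set gave -0.03. With control replicate 1 left out 1 gene of this list rose, and with TFEB-injected replicate 2 left out 2 did.

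The lists for amino acid supply hold genes of these pathways, and not every one is a known ATF4 target. Over all genes, 9.99% were higher and 7.92% lower. Of 11 genes for serine, one-carbon, proline and cysteine synthesis, 5 fell and 0 rose. The median was -0.17, and all 11 lay below 0 (10 of 11 after cyclic loess scaling). Phgdh, Psph and Mthfd2, named after their values were seen, did not pass (limma, adjusted p = 0.109, 0.276 and 0.31). Cth, for the enzyme that makes cysteine from cystathionine, fell by 0.51 ± 0.06 (limma, adjusted p = 0.00161) and Cbs, the step before it, by 0.41 ± 0.05 (adjusted p = 0.00221). Leaving out control replicate 1, or control replicate 2, left 3 that fell. Both enzymes are also ordinary products of hepatocytes.

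Of 10 amino acid transporters, 3 fell and 0 rose, with a median of -0.15. Slc38a2, for a neutral amino acid carrier induced by ATF4, fell from 11.58, 11.56 and 11.52 to 10.90, 10.78 and 10.65, by 0.78 ± 0.07 (limma, adjusted p = 4.36e-04). The glycine transporter gene Slc6a9 fell by 0.35 ± 0.06 (adjusted p = 0.00734), with -0.10 on its other probe set. The count of 0 higher was 1 without TFEB-injected replicate 3. ATF4 also activates genes for cytosolic tRNA synthetases, though not every one listed is a known target. Of 18 measured, 1 fell, Tars, by 0.48 ± 0.06 (limma, adjusted p = 0.00192), and 0 rose, with a median of -0.06. Those counts were 2 lower without TFEB-injected replicate 1 and 1 higher without TFEB-injected replicate 3.

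Among 21 other targets and secreted stress signals, a list not limited to established ATF4 or CHOP targets, 5 rose and 1 fell (median -0.04). Sesn1, a relative of Sesn2, rose by 0.44 ± 0.05 (limma, adjusted p = 0.00136), with 0.53 and 0.66 on its other probe sets. Eif4ebp1, for a repressor of cap-dependent translation, rose by 0.42 ± 0.05 (limma, adjusted p = 0.0018), with 0.35 and 0.05 on the others. The Eif4ebp1 lead probe set is of a kind that can detect related sequences. Sesn3, named after its value was seen, rose by 0.37 ± 0.05 (adjusted p = 0.00277), so both relatives of Sesn2 passed while Sesn2 itself was at 0.09; the difference between them was not tested. Ddit4, for the stress-induced mTORC1 inhibitor REDD1, fell by 0.58 ± 0.07 (adjusted p = 0.00219). Fgf21, a hormone gene induced by both ATF4 and PPAR-alpha and named after its value was seen, gave -0.23 ± 0.07 (limma, adjusted p = 0.0756). With any 1 array left out it lay between -0.29 and -0.18. Its adjusted p then reached 0.22, and was 0.0402 without not-injected replicate 3. Of these 21 genes 3 rose when control replicate 1, control replicate 2 or TFEB-injected replicate 2 was left out. With control replicate 3, TFEB-injected replicate 1 or TFEB-injected replicate 3 left out, 2 fell.

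**Figure D3:**
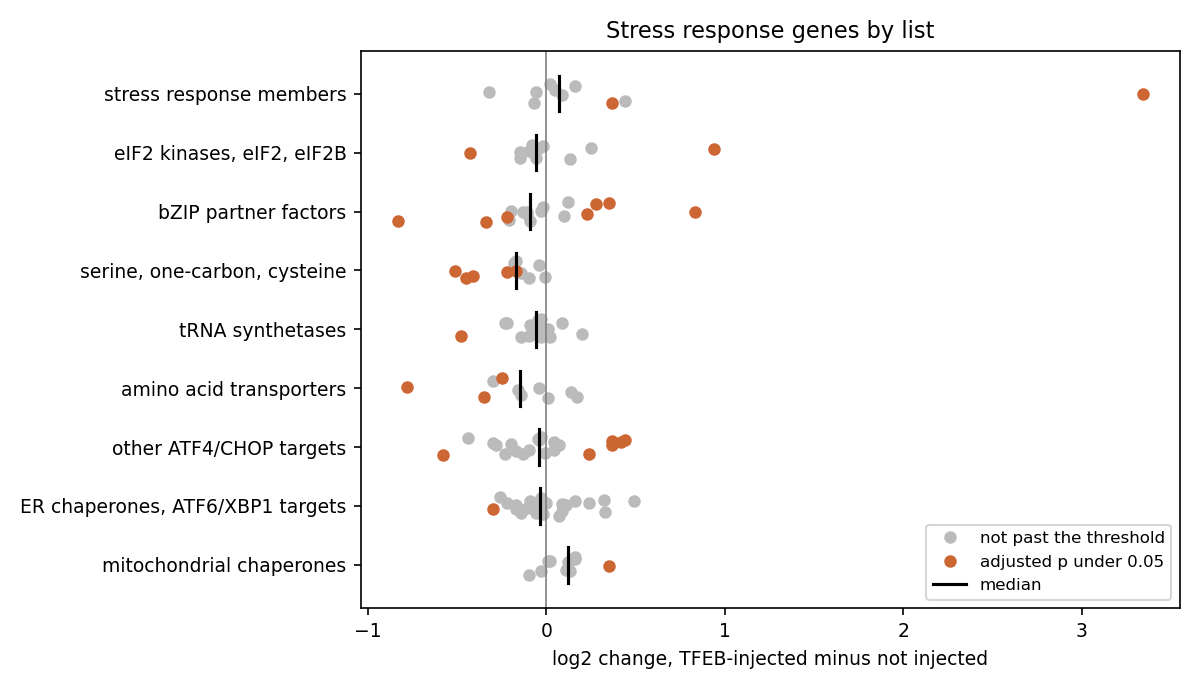
Log2 change (horizontal axis, TFEB-injected minus not injected) of every measured gene in the 10 members and in 8 lists of related genes, 1 point per gene, spread vertically for legibility. Orange points have a limma adjusted p under 0.05, and black bars are list medians; Nupr1 at 3.34 is the far point, with Eif2ak3 at 0.94 the next highest.

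Endoplasmic reticulum chaperones and targets of ATF6 and XBP1, the other arms of the unfolded protein response, did not differ between the groups as Nupr1 did. Of 26 genes, 1 fell, Derl2, by 0.30 ± 0.06 (limma, adjusted p = 0.0126; 0.0529 without not-injected replicate 1), and 0 rose, with a median of -0.04. Without TFEB-injected replicate 3 the higher count was 7. With control replicate 1 left out 0 fell, and with TFEB-injected replicate 1 left out 3 did. Atf6 itself, in the list of bZIP factors, rose by 0.28 ± 0.06 (limma, adjusted p = 0.0183). It did not pass in the fits without control replicate 1, control replicate 3 or TFEB-injected replicate 2, where its adjusted p reached 0.0797. Herpud1, an endoplasmic reticulum stress gene of the other-target list, rose by 0.37 ± 0.08 (adjusted p = 0.0172), and its adjusted p reached 0.0695 among the fits that left out control replicate 1, control replicate 2 or TFEB-injected replicate 2, where it did not pass. Naming these 2 followed a look at their values.

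The injected livers differed widely in some of these chaperone genes, in an order opposite to that of Nupr1 and Chac1. Creld2 gave 10.61, 10.04 and 8.51 in injected replicates 1, 2 and 3 against 9.19, 9.22 and 9.27 in the not-injected livers. Manf gave 11.95, 11.55 and 10.44 against 11.03, 10.88 and 11.05, and Hspa5, for the chaperone BiP, 13.87, 13.58 and 13.00 against 13.40, 13.38 and 13.40. In each of these genes replicates 1 and 2 lay above all not-injected livers and replicate 3 below them all. Dnajb9 (12.05, 11.70 and 11.06 against 11.30, 11.31 and 11.23) and Syvn1 (9.33, 9.03 and 8.33 against 8.63, 8.65 and 8.68) had the same arrangement. Hyou1 (9.95, 9.69 and 9.02 against 9.79, 9.85 and 9.81) kept the order, but its replicate 2 lay below all not-injected livers. Other genes of the list varied little among the injected livers, such as Calr (12.87, 12.81 and 12.8) and P4hb (13.3, 13.28 and 13.24).

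Of the 26 genes, 22 were highest in injected replicate 1 and lowest in replicate 3, against 24.2% of all genes. The same order was seen in 61.1% of the tRNA synthetase genes, 58.3% of the eIF2 and kinase genes, 53.3% of the macrophage markers and 50% of the hepatocyte genes, so it was not confined to the chaperones. What sets the injected livers apart was not tested. Nupr1 was highest in replicate 3 and lowest in replicate 1, as was Chac1. With 3 livers this order is a description, and the genes named for it were chosen after their values were seen. With all arrays the changes were 0.49 for Creld2, 0.33 for Manf, 0.09 for Hspa5, 0.32 for Dnajb9 and 0.24 for Syvn1 (limma, adjusted p from 0.371 to 0.799). Without TFEB-injected replicate 3, in which they were low, they were 1.10, 0.76, 0.33, 0.59 and 0.53. Without TFEB-injected replicate 1, in which they were high, they were 0.05, 0.01, -0.10, 0.10 and 0.03. The genes were named for these livers' values, so neither set is a test, and both show how far 1 liver moves the group difference.

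**Figure D4:**
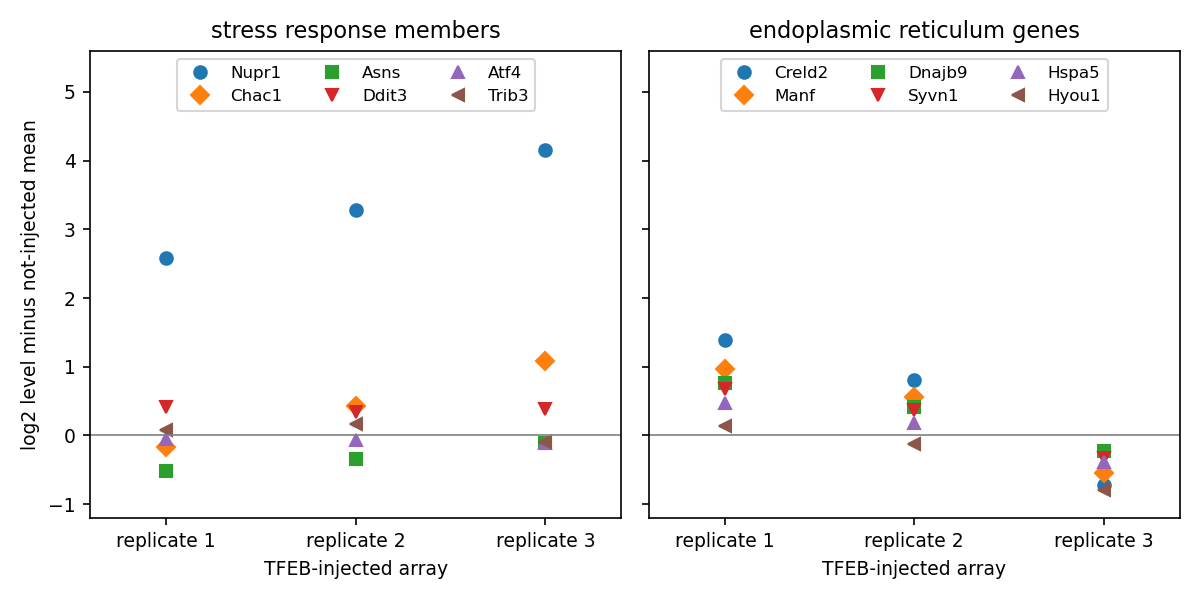
Log2 level minus the not-injected mean (vertical axis) in the 3 TFEB-injected arrays (horizontal axis), for 6 of the stress response members (left) and 6 endoplasmic reticulum genes (right). Replicate 3 has the highest Nupr1 (4.16) and Chac1 (1.08) and the lowest values of the 6 endoplasmic reticulum genes.

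Mitochondrial chaperones and proteases, whose disturbance also reaches eIF2, held 1 higher gene of 11 and 0 lower, with a median of 0.12 and 9 of 11 above 0 (7 of 11 after median centring). The higher count depended on the fit: it was 3 after cyclic loess, 4 with a robust prior that follows intensity and 6 when genes below the median level were left out. Afg3l2, for a protease of the inner membrane, rose by 0.35 ± 0.05 (limma, adjusted p = 0.00351), and its other probe set gave 0.33. The higher count was 2 without TFEB-injected replicate 3, and 1 gene was lower when probe sets were averaged.

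Markers of the tissue and of other cells were read beside these results. In bulk RNA, a change in the number of cells of a type and a change of RNA per cell cannot be told apart. All 12 hepatocyte secreted protein genes were measured at similar levels in both groups (list mean 14.28 to 14.29 in not-injected and 14.26 to 14.29 in injected livers), with 1 lower and 0 higher. Of 15 macrophage and Kupffer cell markers, 11 rose and 0 fell, with a median of 0.49 and list means of 8.66 to 8.67 against 9 to 9.27. Their median excess was 0.60, 0.52 and 0.33 in injected replicates 1, 2 and 3. Of 7 pancreatic acinar markers, 5 fell and 0 rose (median -0.35, list means 6.69 to 6.87 against 6.31 to 6.49). Of these 7, 71.4% were highest in injected replicate 3 and lowest in replicate 1, the order of Nupr1, against 27.5% of all genes. Of 10 endothelial markers 2 rose and 0 fell (7.86 to 7.91 against 8 to 8.18). Of 8 neutrophil markers 1 rose and 0 fell (5.41 to 5.50 against 5.43 to 5.55), and of 12 T, NK and B cell markers 1 and 0 (5.59 to 5.66 against 5.67 to 5.68). Of 10 stellate cell markers 2 rose and 2 fell (8.24 to 8.27 against 8.21 to 8.27), and of 6 cholangiocyte markers 0 rose and 1 fell (5.48 to 5.54 against 5.34 to 5.40). The part of these cells in the values of the 10 genes was not tested.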

How the data were processed

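RMA and the affy package are named in the submitters' processing notes, without versions. The values as deposited are log2 levels per probe set, between 3.08 and 15.20, with array medians of 6.92 to 6.93. Quantile normalization hides overall shifts in RNA content, and RMA compresses changes of dim genes; no detection calls were used. Of 22690 probe sets, 20393 had 1 gene symbol, 691 several and 1606 none; 20380 without controls, for 12393 genes, were named through the platform annotation. The fit was limma 3.58.1 (R 4.3.3; lmFit, eBayes) with Benjamini-Hochberg adjustment over all genes at 0.05, checked on simulated data. The number of arrays limits the precision.

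The members, lists and alternatives were chosen with earlier results of these data known. Named were the 10 members, up to 2 called genes per direction from each of 8 lists, by p (where none passed, the 1 with the lowest p), and the 5 genes closest to Nupr1; other genes were named after their values were seen, as marked. Figures used matplotlib 3.10.9.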

Additional observations from a re-analysis of the deposited data

How the results depend on the processing

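The Nupr1 difference lay between 2.93 and 3.72 under every alternative run. The member count of 2 higher was 6 with array weights and 2 to 3 with an array left out. The count of 0 lower was 1, Asns, when probe sets were averaged per gene, or with median centring, a robust prior that follows intensity, array weights or the replicate block, and 0 to 1 with an array left out. The array weights put 16.26 on TFEB-injected replicate 2, and their estimation stopped before it converged. They gave 2717 higher and 3137 lower genes in all, and 28 and 34 over the 8 lists, where the main counts were 11 and 15. A threshold of 0.01 gave 645 and 408 genes, and 6 higher in the lists. A fit restricted to genes above the median level gave 17 higher list genes. With an array left out the counts were 722 to 1344 higher and 507 to 1065 lower in all, and 6 to 23 and 10 to 17 in the lists. The labels do not say whether the replicate numbers pair the arrays. Correlations of same-numbered deviations were 0.01, -0.13 and -0.11, which cannot settle it with 3 arrays per group. With the replicate number as a block, 923 genes were higher and 610 lower; Jund lost its call (adjusted p = 0.0561). The block also left 2 higher bZIP factor genes and 3 lower serine and cysteine genes. Besides these and the mitochondrial genes, each count of a list moved by at most 1 gene in the fits to all 6 arrays at the same threshold without array weights. Psat1 changed sign, to 0.06 with averaged probe sets and 0.05 with array weights, and ranged from -0.12 to 0.03 with an array left out. Hspa5 ranged from -0.10 to 0.33 in the same way; the cause was not tested. In 7 to 8 members the injected range was wider under 4 alternatives chosen after seeing the data. Signal over background was not tested, which limits Psat1 and the not-injected level of Nupr1.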
